A study of Mus musculus with 6 samples.

Results

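Transcripts of 10 genes of insulin and insulin-like growth factor (IGF) signalling were followed in mouse sciatic nerve: the ligand Igf1, the receptors Igf1r and Insr, the receptor substrates Irs1 and Irs2, the inhibitory adaptor Grb14, and the binding proteins Igfbp2, Igfbp3, Igfbp4 and Igfbp5. They were chosen by gene symbol, and all 10 were found among the 54838 genes of the deposited table and passed the low-count filter, which left 18775 genes. The nerves came from C57 Bl mice at postnatal day 3. There were 3 wild-type (WT) libraries and 3 libraries of genotype CnpCre Actl6afl/fl, called cKO (conditional knockout) here. In the cKO mice, Cre recombinase under the control of Cnp, a gene active in myelinating glia, acts on floxed Actl6a, which encodes an actin-related subunit of chromatin remodelling complexes. How many animals went into each library is not given in the labels, so p-values here measure the spread between libraries only, and that spread may be partly technical.

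IGF1 and IGF2 bind the IGF1 receptor, a tyrosine kinase closely related to the insulin receptor. Both receptors phosphorylate IRS proteins, which recruit PI3-kinase and so activate AKT and mTOR and restrain FoxO transcription factors. IGF binding proteins hold most IGF outside the cell, and proteases release it again. In peripheral nerve, IGF1 is known as a survival and differentiation signal for Schwann cells, and the PI3-kinase, AKT and mTOR branch as a regulator of myelin growth.

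Libraries held 31404107 to 36760296 counts. Myelinating Schwann cell markers took 5.79 to 6.20% of counts in WT, so the labelled tissue carried its defining transcripts. The replicate 2 library of the cKO group stood apart: skeletal muscle markers took 6.64% of its counts, against 0.411 to 0.647% in the other 5 libraries. Values without it are given below where it changes a result. Actl6a, counted over the whole gene in whole nerve, read 48.6, 53.3 and 46.2 CPM (the read count normalised to library size with TMM factors) in WT and 42.4, 47.6 and 41.5 CPM in cKO. Its log2 fold change was -0.17 (edgeR quasi-likelihood adjusted p = 0.243), or -0.24 without cKO replicate 2 (adjusted p = 0.0487). The labels do not give the deleted part, and 11.6% of its exon bases also belong to the antisense gene Mrpl47, so this is a weak check of the genotypes.

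Grb14 fell in cKO nerves and Igf1 and Igfbp3 rose, while the other 7 transcripts did not pass the test. Called here means a Benjamini-Hochberg adjusted p under 0.05 over all 18775 genes in the edgeR fit. The 3 calls among 10 genes (30%) compare with 18.8% of all genes tested. In the upward direction 2 of 10 were called, against 8.55% of all genes, and in the downward direction 1 of 10, against 10.3%. The WT and cKO libraries did not overlap for 4 of the 10 genes, Igf1, Grb14, Igfbp3 and Igfbp5, against 42.7% of all genes tested. The median log2 fold change of the 10 genes was 0.22, and that of all genes tested 0.04. With so few genes, these shares describe the 10 genes and do not set them apart from the rest.

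**Figure D1:**
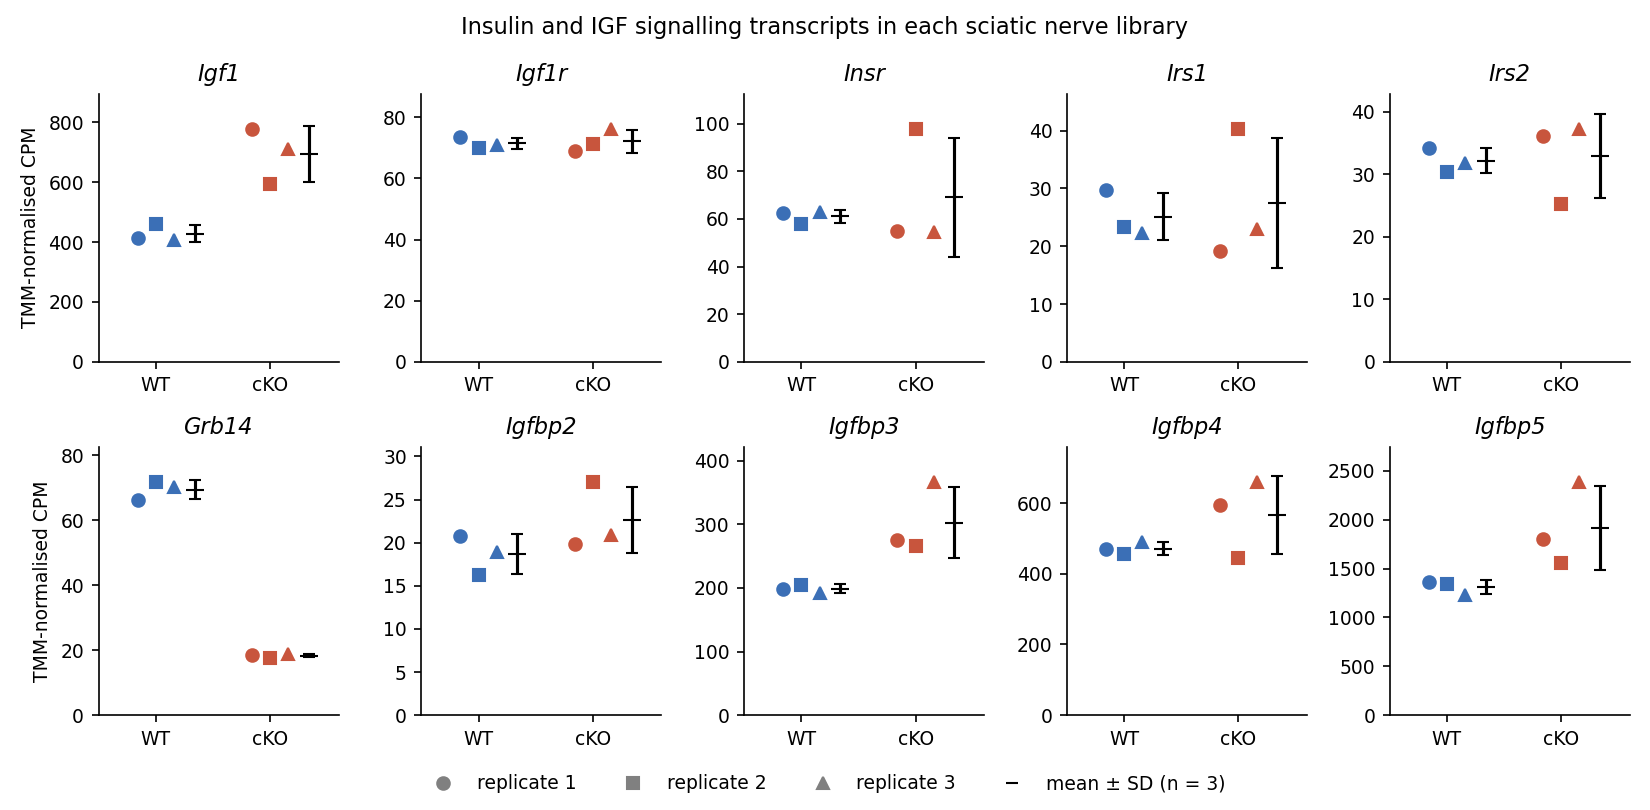
TMM-normalised CPM (vertical axis, from 0) of each of the 10 genes in every library, with the mean and SD of 3 libraries per group in black. Grb14 lies near 18 CPM in all 3 cKO libraries and above 66 CPM in all 3 WT libraries, whereas Insr and Irs1 are high in cKO replicate 2 (squares) alone.

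Igf1, the locally made ligand, lies on chromosome 10 (ENSMUSG00000020053, GRCm38, chr10:87858265-87937042). It read 414.8, 461.0 and 408.2 CPM in the WT libraries, and 778.9, 593.2 and 711.2 CPM in those from cKO mice. Every cKO library lay above every WT library, and cKO replicate 2 was the lowest of its group. The means were 428.0 ± 28.7 and 694.4 ± 94.0 CPM (SD, n = 3 each), a 1.62-fold rise (log2 fold change 0.70, 95% interval 0.39 to 1.01, edgeR adjusted p = 0.0131). The call was lost without WT replicate 1, 2 or 3 (edgeR adjusted p = 0.0722, 0.0602 and 0.0780), with log2 fold changes of 0.67, 0.74 and 0.66. Over all genes, 449 to 483 were called as higher without 1 WT library, against 1605 with all 6 libraries. Leaving out cKO replicate 2 moved the log2 fold change of Igf1 to 0.80 (edgeR adjusted p = 1.23e-05).

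Macrophage markers moved with Igf1: 10 of 12 rose and 0 fell, and their summed share of counts was 0.0761 to 0.0882% in WT and 0.190, 0.110 and 0.145% in cKO replicates 1, 2 and 3. The cKO libraries held the same order for Igf1 and for this share. Of 12 fibroblast markers 5 rose and 0 fell, with 3.52 to 3.57% of counts in WT and 4.78, 3.17 and 4.59% in cKO. The fibroblast share held this same order in the cKO libraries too, with replicate 2 below the WT libraries. None of these markers was at 0 in either group. Their part in the rise of Igf1 was not tested.

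Igf2, the second ligand, which is strongly expressed in fetal and newborn tissue, also rose. It read 155.9, 137.4 and 140.9 CPM in the WT libraries, and 229.6, 413.3 and 310.2 CPM in those from cKO mice, with no overlap of the groups. The difference on the log2 scale was 1.13 (95% interval 0.64 to 1.63, edgeR adjusted p = 0.0128), or 0.90 without cKO replicate 2, which had the highest level (edgeR adjusted p = 0.000288). The call was lost without WT replicate 1, 2 or 3 (edgeR adjusted p = 0.0577, 0.0647 and 0.0662). Of the exon bases of Igf2, 64.5% are shared with Gm49394 or the antisense gene Igf2os, where fragments that overlap more than 1 gene are left out by default in the counting, so its level is not set beside that of Igf1. Igf2r, which carries IGF2 to the lysosome for breakdown, read 186.4, 167.6 and 151.4 CPM in the WT libraries, and 192.0, 378.2 and 265.3 CPM in those from cKO mice. The groups did not overlap, yet the cKO libraries spread widely and no difference was called (log2 fold change 0.72, edgeR adjusted p = 0.0845). DESeq2 called it (0.71, adjusted p = 0.0196), as did edgeR without cKO replicate 1 (0.93, adjusted p = 0.0228), while leaving out cKO replicate 2, the highest library, lowered it to 0.44 (edgeR adjusted p = 0.0514). Ins1 had 0 counts in all 6 libraries, which allows up to 0.0821 to 0.108 CPM per library by counting error alone, and Ins2 had a mean of 0.0672 CPM in the WT libraries, and 0.103 CPM in those from cKO mice.

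Igf1r, the IGF receptor (ENSMUSG00000005533, chr7:67952827-68233668), was nearly level across the 6 libraries. It read 73.5, 70.03 and 70.9 CPM in the WT libraries, and 69.0, 71.1 and 76.3 CPM in those from cKO mice. The log2 fold change was 0.01 with a 95% interval of -0.17 to 0.19 (edgeR adjusted p = 0.918), which leaves room for a change of about that size either way. Insr, the insulin receptor (ENSMUSG00000005534, chr8:3122061-3279617), read 62.4, 57.9 and 63.0 CPM in the WT libraries, and 54.9, 97.9 and 54.5 CPM in those from cKO mice. Replicates 1 and 3 of the cKO group lay below all WT libraries and replicate 2 above them. The difference on the log2 scale was 0.18 (95% interval -0.39 to 0.75, edgeR adjusted p = 0.622) and became -0.16 once cKO replicate 2 was left out (adjusted p = 0.137), so the sign of this uncalled difference turned on that library.

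Irs1 and Irs2, the substrates that carry the signal from both receptors to PI3-kinase, were not called either. Irs1 (ENSMUSG00000055980, chr1:82233101-82291416) read 29.8, 23.3 and 22.3 CPM in the WT libraries, and 19.3, 40.4 and 23.0 CPM in those from cKO mice. As for Insr, cKO replicate 2 was the highest of all libraries. On the log2 scale it differed by 0.13 (95% interval -0.57 to 0.83, edgeR adjusted p = 0.771), or -0.25 without cKO replicate 2 (adjusted p = 0.177). Irs2 (ENSMUSG00000038894, chr8:10984681-11008458) went the other way in that library, with 34.3, 30.3 and 31.8 CPM in the WT libraries, and 36.2, 25.3 and 37.3 CPM in those from cKO mice. Its log2 fold change was 0.04 (95% interval -0.34 to 0.41, edgeR adjusted p = 0.893), or 0.19 without cKO replicate 2 (adjusted p = 0.103). The excess in cKO replicate 2 was 1.79 times the mean of cKO replicates 1 and 3 for Insr and 1.91 times for Irs1, beside its 6.64% of counts from muscle markers. The part of muscle RNA in these values was not tested. A fit with the muscle share as a covariate gave log2 fold changes of -0.21 for Insr and -0.31 for Irs1 (edgeR adjusted p = 0.0677 and 0.0879). That share sets cKO replicate 2 apart from all other libraries, so this fit largely repeats leaving that library out.

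Grb14 showed the largest fold change of the 10 genes and the smallest adjusted p. GRB14 is an adaptor that binds the activated insulin receptor and inhibits its kinase. The gene (ENSMUSG00000026888, chr2:64912476-65024987) read 66.2, 71.9 and 70.2 CPM in the WT libraries, and 18.5, 17.7 and 18.9 CPM in those from cKO mice. The means were 69.4 ± 2.90 and 18.4 ± 0.577 CPM (SD, n = 3 each), a 3.78-fold fall (log2 fold change -1.92, 95% interval -2.11 to -1.73, edgeR adjusted p = 0.000139). With any 1 library removed Grb14 was still called, in 6 of 6 fits, with log2 fold changes from -1.96 to -1.89. No exon base of Grb14 is shared with another gene of the annotation.

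Myelinating Schwann cell markers moved with Grb14: 10 of 10 fell (median log2 fold change -2.29), and their summed share was 5.79 to 6.20% of counts in WT and 1.33, 0.566 and 1.19% in cKO replicates 1, 2 and 3. Of 8 Schwann lineage markers 5 fell and 1 rose (median -0.90), with 0.296 to 0.312% of counts in WT and 0.0891 to 0.178% in cKO. No marker of either list was at 0. In whole nerve, fewer cells of a type and less RNA per cell cannot be told apart. Within the cKO group Grb14 was nearly constant (coefficient of variation 3.14%), while the myelin share of replicate 2 was below that of replicates 1 and 3.

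The related adaptor Grb10, an imprinted gene that also inhibits insulin and IGF1 receptors, was not called. It read 726.6, 725.7 and 699.7 CPM in the WT libraries, and 735.3, 1499 and 954.8 CPM in those from cKO mice (log2 fold change 0.57, 95% interval -0.03 to 1.16, edgeR adjusted p = 0.159). Replicate 2 of the cKO group was the highest. The size of the difference turned on the fit: over 13 alternatives it ran from 0.18 to 0.77, without a call. Per length, Grb10 stood at 7.88 to 8.68 times the level of Grb14 in WT and at 31.4, 66.8 and 40.0 times in cKO. The ratio did not overlap between the groups, but it contains the fall of Grb14 and is no separate result. It is given without a test. Grb7, the third member of the family, was below the filter.

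Stretches upstream of Grb14, which fell, and of Igfbp3, which rose, are shown as examples of called members that moved in opposite directions. Igf1, which was also called, is not printed because the counted annotation has its whole window as exon. Both come from RefSeq (GRCm38.p6, minus strand, 5′ to 3′) and leave out bases that the counted annotation has as exon. The Igfbp3 stretch ends next to the RefSeq start, and the Grb14 stretch ends 16 bases before it, inside the longer span that the counted annotation gives Grb14. Capitals mark matches to the motifs searched.
Grb14, chr2:65022783-65023016: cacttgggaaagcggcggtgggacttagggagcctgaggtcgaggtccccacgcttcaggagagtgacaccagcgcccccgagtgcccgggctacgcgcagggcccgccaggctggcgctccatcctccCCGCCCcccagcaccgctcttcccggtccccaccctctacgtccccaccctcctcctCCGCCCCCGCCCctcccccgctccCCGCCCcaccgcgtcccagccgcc
Igfbp3, chr11:7213924-7214173: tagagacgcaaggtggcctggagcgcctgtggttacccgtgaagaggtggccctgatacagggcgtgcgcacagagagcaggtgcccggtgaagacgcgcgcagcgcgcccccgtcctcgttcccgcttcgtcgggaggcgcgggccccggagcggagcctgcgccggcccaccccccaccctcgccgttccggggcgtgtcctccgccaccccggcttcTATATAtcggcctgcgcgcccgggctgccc
Motifs were searched on both strands and chosen after earlier results and these sequences had been seen. The Grb14 stretch holds 4 matches to the GC box GGGCGG, the letters bound by SP family factors, all on the opposite strand. This motif is found in 32.7% of 32851 RefSeq promoter windows of 250 bases. Windows of Igf1r, Irs1, Irs2 and Igfbp2, which were not called, hold it too. The Igfbp3 stretch holds the TATA form TATATA, 30 to 25 bases before its end, which 5.25% of windows hold. The other TATA form searched, TATAAA, is in neither stretch but in the window of Igfbp4, and 15.6% of windows hold at least 1 of the forms. The EGR site GCGTGGGCG, bound by early growth response factors that drive myelin genes, is in neither stretch and in 0.536% of windows. The SOX core ACAAAG, recognised by SOX10 and its relatives, is in neither and in 16.5% of windows, and the window of Igf1 holds it, its only match to the motifs searched. The TEAD core CATTCC, recognised by the partners of YAP and TAZ, is in neither and in 12.6% of windows, among them those of Irs1 and Igfbp5. The FoxO core GTAAACA, the letters that link this search to insulin signalling, is in neither and in 3.17% of windows. Both stretches are rich in G and C, at 75.2% for Grb14 and 73.2% for Igfbp3, against a median of 52.4%. These matches describe letters and show no binding.

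**Figure D2:**
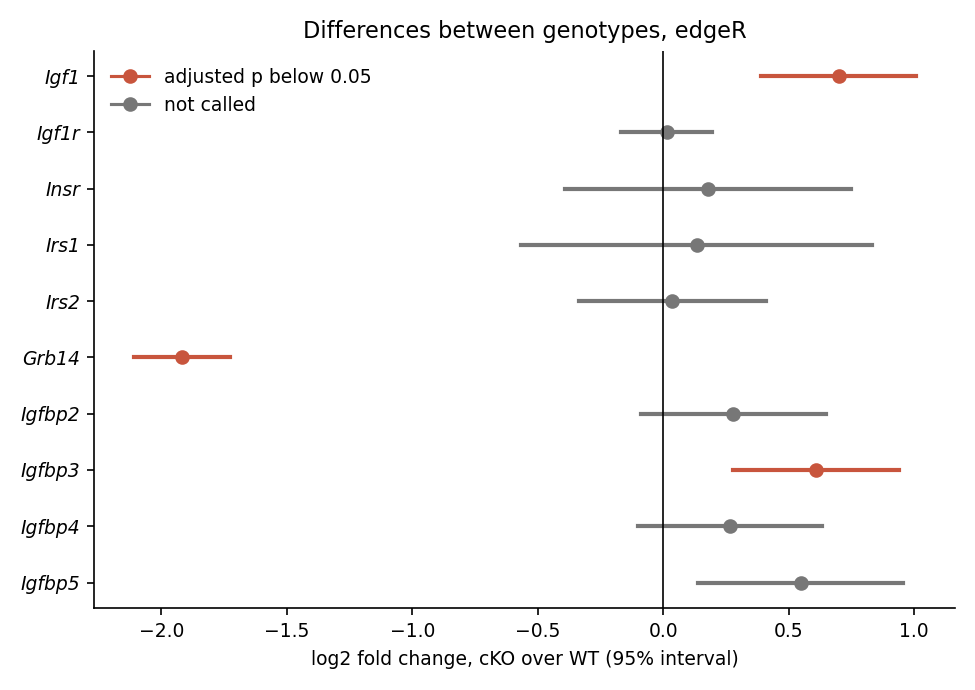
Log2 fold change of cKO over WT (horizontal axis) with its 95% interval for the 10 genes, in red where the adjusted p was under 0.05. Grb14 lies at -1.92, Igf1 at 0.70 and Igfbp3 at 0.61, and the intervals of Insr and Irs1 are the widest.

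Among the binding proteins, Igfbp3 was called, and Igfbp2, Igfbp4 and Igfbp5 were not. IGFBP3 is the main carrier of IGFs in blood. Igfbp3 (ENSMUSG00000020427, chr11:7206086-7213923) read 198.9, 205.3 and 191.6 CPM in the WT libraries, and 275.7, 265.7 and 366.8 CPM in those from cKO mice. The groups did not overlap, and cKO replicate 3 was well above the other cKO libraries. The means of 198.6 ± 6.85 and 302.7 ± 55.7 CPM (SD, n = 3 each) gave a 1.52-fold rise (log2 fold change 0.61, 95% interval 0.28 to 0.94, edgeR adjusted p = 0.0267). The call was lost without WT replicate 1, 2 or 3 (edgeR adjusted p = 0.106, 0.104 and 0.118), and the log2 fold change was 0.69 without cKO replicate 2 (edgeR adjusted p = 0.000410) and 0.45 without cKO replicate 3.

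Igfbp5, the most abundant of the 10 transcripts per length and a binding protein that also attaches to extracellular matrix (ENSMUSG00000026185, chr1:72857932-72874884), read 1361, 1343 and 1226 CPM in the WT libraries, and 1803, 1556 and 2388 CPM in those from cKO mice. Every cKO library lay above every WT library, but the spread among them was wide. The log2 fold change of 0.55 (95% interval 0.14 to 0.96) missed the threshold over all genes (edgeR adjusted p = 0.0689). DESeq2 called it (0.53, adjusted p = 0.0201), as did edgeR with no low-count filter (adjusted p = 0.0313) and edgeR after cKO replicate 2 was removed (0.68, adjusted p = 0.000579).

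Igfbp4, whose product inhibits IGFs until the protease PAPP-A cleaves it (ENSMUSG00000017493, chr11:99041244-99054392), read 468.9, 454.7 and 490.7 CPM in the WT libraries, and 594.1, 446.0 and 660.3 CPM in those from cKO mice. Replicate 2 of the cKO group lay below all WT libraries and the other cKO libraries above them. The log2 fold change was 0.27 (edgeR adjusted p = 0.262), and leaving out cKO replicate 2 it was 0.41 and called (edgeR adjusted p = 0.00184). Igfbp2, a binding protein prominent in fetal tissues (ENSMUSG00000039323, chr1:72824503-72852474), read 20.8, 16.2 and 18.9 CPM in the WT libraries, and 19.9, 27.1 and 20.9 CPM in those from cKO mice. The groups overlapped (log2 fold change 0.28, 95% interval -0.09 to 0.65, edgeR adjusted p = 0.246). Igfbp2 and Igfbp5 are neighbours on chromosome 1, with 5457 bases between them, and differed in level by more than an order of magnitude per length.

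Fibroblast and perineurial markers were lowest within the cKO group in replicate 2, as were Igfbp3, Igfbp4 and Igfbp5 but not Igfbp2. In cKO replicates 1, 2 and 3 the fibroblast share was 4.78, 3.17 and 4.59% and the share of 6 perineurial markers 0.0446, 0.0198 and 0.0472%, against 0.0326 to 0.0350% in WT. Of the perineurial markers 2 rose and 1 fell, and none was at 0. Igfbp3, Igfbp4 and Igfbp5 were highest in cKO replicate 3, as was the perineurial share, whereas the fibroblast share was highest in cKO replicate 1. In cKO replicate 2 both shares lay below the WT libraries, while Igfbp3 and Igfbp5 lay above them and Igfbp4 below. Igfbp2 was highest in cKO replicate 2. The part of these cell types in the values was not tested.

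**Figure D3:**
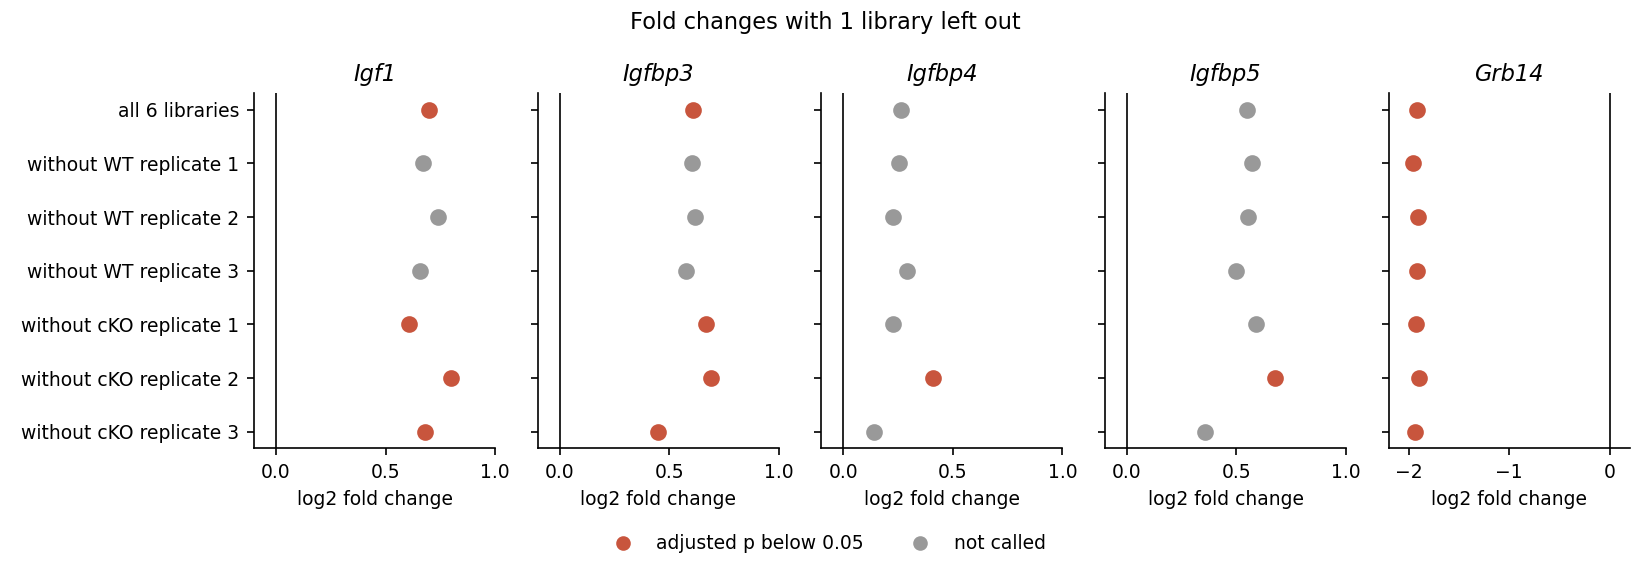
Log2 fold change of cKO over WT (horizontal axis) for Igf1, Igfbp3, Igfbp4, Igfbp5 and Grb14 with all 6 libraries and with each library left out in turn, in red where the adjusted p was under 0.05. Grb14 stays between -1.96 and -1.89, the calls of Igf1 and Igfbp3 are lost without any 1 WT library, and Igfbp4 and Igfbp5 are called without cKO replicate 2.

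Levels were compared between genes per kilobase of exon. In WT the order ran from Igfbp5 (218.1 ± 12.3 CPM per kilobase, SD, n = 3) through Igfbp4 (106.8 ± 4.11), Igfbp3 (63.4 ± 2.19) and Igf1 (43.2 ± 2.90). Igfbp2 (10.1 ± 1.25) and Grb14 (9.66 ± 0.404 CPM per kilobase) overlapped, and Irs2 (5.09 ± 0.316) followed. Insr (4.44 ± 0.205) and Igf1r (4.26 ± 0.106 CPM per kilobase) overlapped as well, and Irs1 (2.75 ± 0.442) was the lowest. Secreted components were thus the most abundant and receptors and substrates the least. In cKO the first 5 places by mean were unchanged, but the libraries of Igfbp4 and Igfbp3 overlapped there. Grb14 moved to the last place at 2.56 ± 0.0803 CPM per kilobase, overlapping Irs1 (3.01 ± 1.23). The level of Irs1 is a low estimate, because 30.9% of its exon bases lie opposite Gm9747. Over its unshared exon bases its mean was 3.97 CPM per kilobase in WT, still the lowest mean, and 4.36 in cKO, close to Igf1r (4.30). Overlap between libraries was not compared for these values, so they do not set Irs1 below Igf1r or Insr.

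The summed level of the 4 binding proteins was 407.7, 401.0 and 386.6 CPM per kilobase in WT and 533.5, 459.6 and 675.6 in cKO. Igfbp5 made up 52.8 to 55.8% of this sum in WT and 56.3 to 58.8% in cKO, and Igfbp4 25.7 to 28.7% and 22.0 to 25.2%. The share of Igfbp3 was 15.6 to 16.4% in WT and 16.5 to 18.5% in cKO. These 3 shares each shifted by only a few percentage points, without overlap between the groups, and that of Igfbp2 overlapped. The ratio of Igf1r to Insr per length was 0.964, 0.991 and 0.921 in WT and 1.03, 0.594 and 1.146 in cKO, with replicate 2 of the cKO group apart from the rest. The ratio of Irs1 to Irs2 was 0.600, 0.531 and 0.485 in WT and 0.368, 1.10 and 0.426 in cKO. These sums and ratios are descriptions with no test.

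The spread among libraries was larger in cKO than in WT for 9 of the 10 genes, all but Grb14. The share of all genes with a larger spread in cKO is not given here. Over the whole table too, pairs with cKO replicate 2 differed most, with a chi-square per degree of freedom of 345.8 and 313.5. It was 31.8 between cKO replicates 1 and 3, and 8.98 to 16.3 in WT. In WT the coefficient of variation ran from 2.49% for Igf1r to 16.1% for Irs1, and in cKO from 3.14% for Grb14 to 40.9% for Irs1. Replicate 2 was the highest cKO library for Insr, Irs1 and Igfbp2 and the lowest for 6 genes, and lay between the others for Igf1r.

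Other genes of the pathway were taken from 6 lists with 82 genes, of which 75 were tested. In cKO nerves 9 rose and 10 fell, 25.3% of those tested against 18.8% of all genes. The groups did not overlap for 38 of the 75 (50.7%), against 42.7% of all genes. Of the 19 calls, 5 held in all 6 fits without 1 library, among them Stc1, Phlpp2, Sgk1 and Cdkn1b.

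Of 8 tested genes for other binding proteins and for the proteases and protease inhibitors that act on them, 5 rose and 0 fell, with a median log2 fold change of 1.05, where 8.55% of all genes rose. This count fell without any library but cKO replicate 2, and so did that of all genes. The list count was 1 without WT replicate 1 or 2, 2 without WT replicate 3, cKO replicate 1 or cKO replicate 3, and 3 without robust estimation. Over all genes 1605 rose with all 6 libraries, 449, 483 and 456 without WT replicate 1, 2 and 3, and 1345 and 835 without cKO replicate 1 and 3. Stc1 encodes stanniocalcin 1, a secreted inhibitor of PAPP-A. It read 2.56, 1.64 and 2.33 CPM in the WT libraries, and 8.81, 5.35 and 7.29 CPM in those from cKO mice, a 3.29-fold rise without overlap (log2 fold change 1.72, edgeR adjusted p = 0.00603). Pappa, the gene of the IGFBP4 and IGFBP5 protease PAPP-A, read 2.08, 2.36 and 1.89 CPM in the WT libraries, and 6.84, 3.05 and 7.74 CPM in those from cKO mice. Its log2 fold change of 1.48 was called (edgeR adjusted p = 0.0287), a call lost in 5 of the 6 fits without 1 library (edgeR adjusted p = 0.0678 to 0.118) and kept without cKO replicate 2 (edgeR adjusted p = 3.53e-06). The protease and its inhibitor were thus both higher in cKO.

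Htra1, a secreted serine protease that can cleave IGF binding proteins, read 29.8, 32.2 and 37.9 CPM in the WT libraries, and 63.3, 62.5 and 47.6 CPM in those from cKO mice (log2 fold change 0.80, edgeR adjusted p = 0.0126). It was not called without WT replicate 1 or 2 (edgeR adjusted p = 0.0679 and 0.0672). Igfbp6, which prefers IGF2, had a log2 fold change of 0.79 and Igfbp7, a distant relative with low affinity for IGFs, 0.46 (edgeR adjusted p = 0.0450 and 0.0444). Both were named after their values were seen, and both calls held in 1 of the 6 fits without 1 library, with adjusted p up to 0.161 and 0.167 in the others. Stc2, also an inhibitor of PAPP-A, was high in cKO replicate 2 alone, at 9.83 CPM against 1.77 to 2.05 CPM in the WT libraries (log2 fold change 1.31, edgeR adjusted p = 0.216). Igfals, the gene of the acid-labile subunit, was likewise high in that library alone, at 2.01 CPM (log2 fold change 1.36, edgeR adjusted p = 0.343). In cKO replicates 1 and 3 it read 0.243 and 0.200 CPM, below the 0.274 to 0.331 CPM of the WT libraries. Both genes enter the median of the binding protein and protease list.

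Of 15 tested substrates, adaptors and feedback inhibitors, 0 were called, against 18.8% of all genes tested, with a median log2 fold change of 0.10. At an unadjusted p under 0.05 there were 5, and DESeq2 called 0 as higher and 1 as lower. The share of all genes under that unadjusted threshold is not given here. Without cKO replicate 2, edgeR called 4 of 16 tested as higher and 2 as lower. Over all 19256 genes of that fit it called 3425 and 3398.

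Of 17 genes of the PI3-kinase and AKT branch, 5 fell and 1 rose, with a median of 0.05, where 10.3% of all genes fell and 8.55% rose. Only 2 fell without WT replicate 1, 2 or 3 or cKO replicate 3, and in each of these fits 0 rose. Over all genes 790 to 829 fell without 1 WT library, against 1929 with all 6 libraries. Leaving out cKO replicate 2 gave 7 lower and 2 higher, against 3398 and 3425 of all 19256 genes. Akt1 (0.20, edgeR adjusted p = 0.175) and Akt2 (0.45, adjusted p = 0.0685) were not called. Without cKO replicate 2, Akt2 was called as higher (0.28, edgeR adjusted p = 0.0143). Phlpp2, a phosphatase that inactivates AKT, read 37.3, 33.6 and 32.9 CPM in the WT libraries, and 21.2, 22.2 and 20.3 CPM in those from cKO mice (log2 fold change -0.70, edgeR adjusted p = 0.00401). Every cKO library lay below every WT library.

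Of the others that fell, 3 are named after their values were seen: Pik3r1, a regulatory subunit of PI3-kinase (-0.46), Gsk3b, a kinase inhibited by AKT (-0.40), and Pik3r3 (-0.35), with edgeR adjusted p of 0.0373, 0.0298 and 0.0428. Each of these 3 calls held in at most 2 of the 6 fits without 1 library, and 24.3% of the exon bases of Pik3r3 are shared with Gm49337. Inpp5d, a phosphatase of PI3-kinase products found mainly in blood cells, rose (log2 fold change 0.53, edgeR adjusted p = 0.0154), from 14.9, 13.7 and 15.9 CPM to 22.8, 20.1 and 21.5 CPM. The call was lost on removing any 1 WT library or cKO replicate 3 (adjusted p = 0.0520 to 0.0893). Macrophage markers moved with it, as given beside Igf1. Erythroid markers did so too: 4 of 7 rose and 0 fell, none was at 0, and their share was 0.271 to 0.396% of counts in WT and 2.29, 0.779 and 0.722% in cKO, with cKO replicate 1 well above the others. The part of these blood cells in the rise of Inpp5d was not tested.

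Of 16 genes of the TSC and mTOR complexes and their effectors, Sgk1 alone was called with all 6 libraries, with a list median of -0.05. Of all genes tested, 10.3% were called as lower and 8.55% as higher. Without cKO replicate 2, 1 of the 16 was called as higher and 2 as lower, against 3425 and 3398 of all 19256 genes. The muscle share as a covariate also gave 1 and 2, against 3220 and 3287 of all 18775 genes. Sgk1, a kinase downstream of mTOR complex 2 and of steroid hormones, read 118.3, 131.0 and 126.2 CPM in the WT libraries, and 88.9, 82.4 and 76.1 CPM in those from cKO mice (log2 fold change -0.60, edgeR adjusted p = 0.00646). Mtor, Rptor and Rictor, the kinase and the scaffold proteins of its 2 complexes, had log2 fold changes of -0.24, -0.04 and -0.22 and were not called (edgeR adjusted p = 0.0720, 0.827 and 0.118).

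Of 17 FoxO factors and genes known as FoxO targets, 4 fell and 2 rose, with a median of -0.04, where 10.3% of all genes fell and 8.55% rose. Removing 1 WT library left 1 or 2 that fell, and removing cKO replicate 2 gave 7. Of those that rose, 0 were left after removing WT replicate 1 or 2, 1 after removing WT replicate 3 or cKO replicate 1, and removing cKO replicate 2 gave 4. Over all genes, 449 to 483 rose and 790 to 829 fell without 1 WT library. Without cKO replicate 2, 3425 rose and 3398 fell of all 19256. Cdkn1b, the cell cycle inhibitor p27, read 260.1, 262.2 and 294.0 CPM in the WT libraries, and 101.2, 73.8 and 98.3 CPM in those from cKO mice (log2 fold change -1.58, edgeR adjusted p = 0.00112). Klf15, a metabolic transcription factor, read 17.9, 18.6 and 21.9 CPM in the WT libraries, and 10.97, 6.78 and 11.03 CPM in those from cKO mice, a 2.03-fold fall (edgeR adjusted p = 0.0168). Its call was lost without WT replicate 1, 2 or 3 (edgeR adjusted p = 0.0616, 0.0647 and 0.0771). The myelinating Schwann cell share given beside Grb14 moved with both genes, and it was lowest, as they were, in cKO replicate 2 (0.566% of counts, against 1.33 and 1.19% in replicates 1 and 3). Its part in these falls was not tested. Ccng2, a cyclin linked to cell cycle arrest, fell by 0.52 on the log2 scale (edgeR adjusted p = 0.00921), with adjusted p of 0.0507 and 0.0540 without WT replicate 2 or 3.

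Sesn3 also fell (-0.48), and Foxo6 (0.76) and Cited2 (0.66) rose, with edgeR adjusted p of 0.0172, 0.0403 and 0.0242. These 3 were named after their values were seen, and each call held in 2 of the 6 fits without 1 library. Foxo1 (-0.04) and Foxo3 (-0.03), the widely expressed FoxO factors, were not called (edgeR adjusted p = 0.745 and 0.878). Trim63, a muscle atrophy gene, stood at 2.11 on the log2 scale without a call (edgeR adjusted p = 0.218) and was high in cKO replicate 2 alone, at 40.4 CPM.

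**Figure D4:**
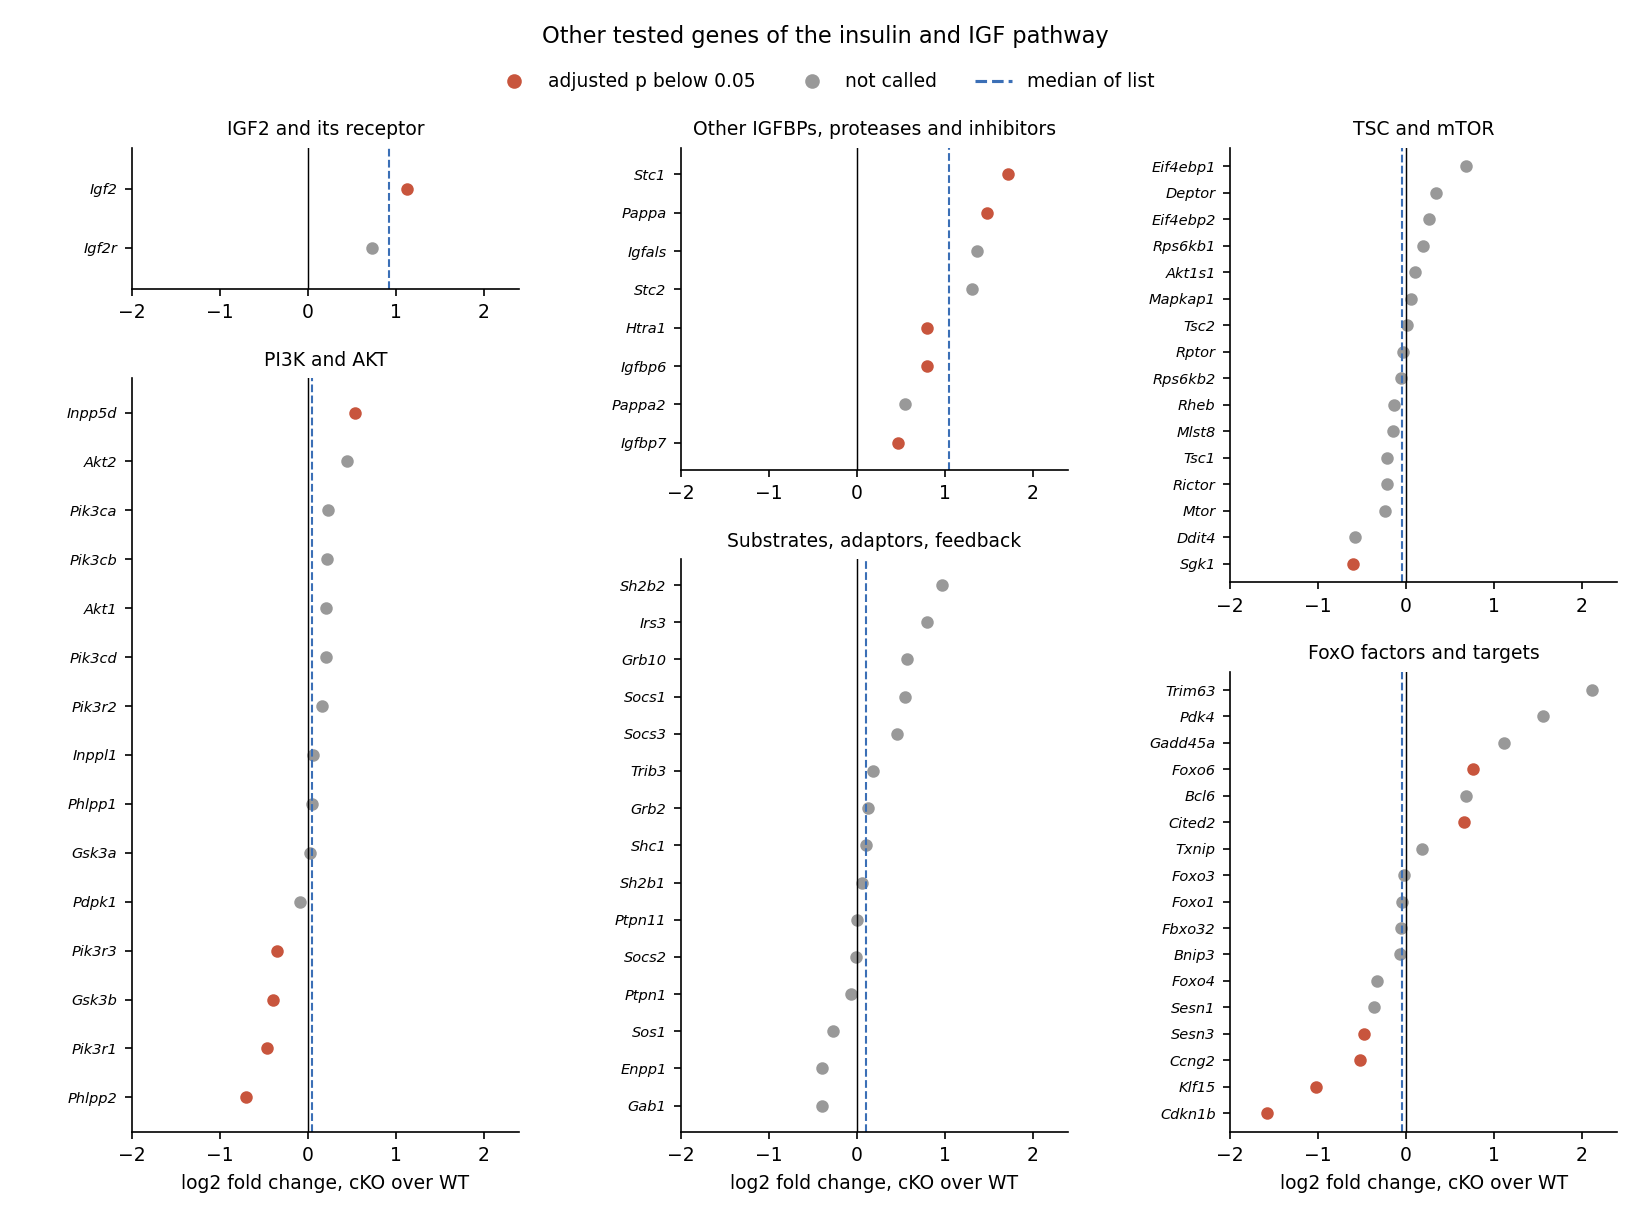
Log2 fold change of cKO over WT (horizontal axis) of 73 of the 75 tested genes of the 6 pathway lists, in red where the adjusted p was under 0.05, with the median over all tested genes of each list as a dashed line. All 8 tested genes of the binding protein and protease list lie above 0, Igfals and Stc2 with high values in cKO replicate 2 alone. Of the 8, 5 were called, whereas the substrate list has 0 calls.

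The genes most like each called member were found by the mean absolute difference of centred log2 CPM over the 6 libraries, among 14504 genes whose average log2 CPM was 1 or more. For Grb14 they were Trim13, Aacs and Chst2, at 0.07, 0.08 and 0.08. Their own log2 fold changes were -1.77, -1.99 and -1.97. Aacs, which activates acetoacetate for lipid synthesis, read 112.4, 108.6 and 110.3 CPM in the WT libraries, and 28.0, 24.5 and 30.7 CPM in those from cKO mice. For Igf1 they were Tlr1, Wnt5a and Ecm2, each at 0.03, with log2 fold changes of 0.67, 0.67 and 0.65. Wnt5a, a secreted WNT ligand, read 19.9, 22.1 and 19.9 CPM in the WT libraries, and 34.7, 28.8 and 34.7 CPM in those from cKO mice. For Igfbp3 they were Nacad (0.02), Anpep (0.03) and Wnt9a (0.03), with log2 fold changes of 0.57, 0.67 and 0.67. This is a ranking of pattern over 6 libraries and carries no test.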

How the data were processed

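RNA of whole sciatic nerve was sequenced, about 150 ng of total RNA per library, per the labels' protocols. The authors deposited 1 table of raw fragment counts per gene with the exon length of each gene. Fragments were assigned, per the file headers, by featureCounts 1.6.1 to exons of Ensembl GRCm38 release 95, with both ends aligned, a mapping quality of at least 20 and no strand option, so sense and antisense fragments cannot be told apart. Subread 2.0 and DESeq2 1.3 are also named in the submitters' processing notes, without aligner settings. All 54838 rows name a gene. Symbols came from GENCODE M21, which matched 54809 identifiers.

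Groups came from the sample titles. The test was edgeR 4.0.16 (R 4.3.3): filterByExpr (minimum count 10), scaling by TMM, a robust quasi-likelihood fit leaving 4 residual degrees of freedom, a 2-sided F test and Benjamini-Hochberg adjustment over 18775 genes. The script was tested on simulated data. DESeq2 1.42.0, other filters and scalings, a replicate block, a muscle covariate and leaving out each library were alternatives. No pair of same-group libraries matched within counting noise (chi-square divided by its degrees of freedom, 8.98 to 345.8), so each was kept as a replicate. Promoters came from RefSeq and cover 9 of the 10 genes. Intervals that a count of 0 allows cover counting error only.

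The 10 genes, the pathway and marker lists and the rule for named genes were chosen with earlier results of these data known. Named genes are the 10, Actl6a, Igf2, Igf2r, up to 3 called genes of each pathway list with the smallest p, and the 3 genes nearest in pattern to each called member. Grb10, Ins1, Ins2, Stc2, Igfals, Akt1, Akt2, Mtor, Rptor, Rictor, Foxo1, Foxo3, Trim63 and those marked so in the text were named after their values were seen. Results for 2 genes of the pathway lists are not reported here; they stay in the counts and medians of their list.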

Additional observations from a re-analysis of the deposited data

How the results depend on the processing

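The call of Grb14 held under all 13 alternatives, with log2 fold changes from -1.96 to -1.89, and no called value reversed. Igf1 and Igfbp3 kept their direction under all 13 (0.61 to 0.83 and 0.45 to 0.71). With the replicate number as a block, 744 genes rose and 1108 fell over the whole table, against 1605 and 1929 without it. Of the 10 genes 0 then rose (edgeR adjusted p = 0.0582 for Igf1 and 0.0718 for Igfbp3) and 1 fell, and of the pathway genes 3 rose. Nothing in the labels ties libraries of the same number to each other: deviations of same-numbered libraries from their group means correlated at -0.22, -0.23 and -0.08, and no library correlated best with its own number. With the muscle share as a covariate 3220 genes rose and 3287 fell, among them 4 of the 10 genes up, and 16 pathway genes up and 17 down. DESeq2 called 14 pathway genes up, against 9 in edgeR, and 2125 of all genes up, against 1605. Leaving out 1 library gave 449 to 3425 genes up and 790 to 3398 down, 0 to 4 of the 10 genes up and 1 of them down in every such fit, and 1 to 17 pathway genes up and 4 to 18 down. The highest counts came without cKO replicate 2 and the lowest without a WT library. The cause of these shifts was not tested beyond the smaller number of libraries. With 3 libraries a group, the interval of Insr spans -0.39 to 0.75 and that of Irs1 -0.57 to 0.83 on the log2 scale. The data thus leave room for a change in either direction within those intervals.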
